A study of Mus musculus with 4 samples.

Results

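The genes described here are the mouse genes whose symbol starts with Zfp and a number and that had at least 1 Sp9 peak assigned to them, leaving out Zfp521, Zfp503, Zfp608, Zfp609 and Zfp385b. They numbered 76 of the 6474 gene names in the lists of both stages, with 52 of the 4826 names at embryonic day 13.5 (E13.5) and 65 of the 5463 names at embryonic day 16.5 (E16.5). The 52 and 65 make up 68.4% and 85.5% of the 76, beside 74.5% and 84.4% for all names. The genes were chosen by the presence of a listed peak in these same libraries, so the counts below describe them and are given with no test. Sp9, a zinc finger factor of the Sp family made in the developing ganglionic eminences, was immunoprecipitated from cross-linked basal ganglia; the embryos were wild-type CD1 mice of each stage, with 1 Sp9 library and 1 input library per stage. No treatment or mutation was involved, and the inputs are used only through the authors' peak calling. The lists give the distance of each peak from a transcription start site (TSS) in the mm9 build, and neither height, fold enrichment nor read total, so depth is unknown and the labelled tissue cannot be checked against expression markers. With 1 library per stage no difference between the stages has a replicate check, and weaker binding that missed the authors' threshold would leave a gene unlisted. Intervals are 95% Wilson intervals and cover counting error over genes, peaks or promoter sequences only.

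Zfp is a naming scheme and not a single family. Most of its genes encode C2H2 proteins, in which pairs of cysteines and histidines hold a zinc ion and each finger contacts a few bases of DNA. Many of them also carry a KRAB domain, which recruits the corepressor Trim28 and the histone methyltransferase Setdb1 to silence transposable elements, and KRAB genes often lie in tandem clusters. Others are regulators without a KRAB domain, among them Zfp423, Zfp462 and Zfp536 of the nervous system, and a few, such as Zfp36l1 and Zfp36l2, are CCCH proteins that bind AU-rich messenger RNA.

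Promoter sequences of 7 of these genes are shown first, because the lists put peaks at some of these promoters and none at others, and because Sp family factors are known to bind GC boxes. Each is the 250 bases upstream of a TSS in RefSeq, build GRCm38.p6, printed from 5′ to 3′ on the gene's strand, with GC boxes (GGGCGG or its reverse complement CCGCCC) in capitals. The examples were chosen after their values were seen. Zfp787 (chr7:6155966-6156215, minus strand) and Zfp212 (chr6:47920318-47920567, plus strand) had a promoter peak at both stages. Zfp281 (chr1:136624651-136624900, plus strand) and Zfp768 (chr7:127345315-127345564, minus strand) had a promoter peak on E16.5 only, and Zfp319 (chr8:95331812-95332061, minus strand) on E13.5 only. Zfp618 (chr4:62965317-62965566, plus strand) and Zfp536 (chr7:37769753-37770002, minus strand) had distal peaks only.
Zfp787: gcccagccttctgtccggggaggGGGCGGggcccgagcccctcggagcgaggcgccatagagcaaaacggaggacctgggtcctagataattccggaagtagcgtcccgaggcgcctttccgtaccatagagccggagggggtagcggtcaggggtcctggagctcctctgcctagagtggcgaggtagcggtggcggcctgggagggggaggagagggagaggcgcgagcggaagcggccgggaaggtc
Zfp281: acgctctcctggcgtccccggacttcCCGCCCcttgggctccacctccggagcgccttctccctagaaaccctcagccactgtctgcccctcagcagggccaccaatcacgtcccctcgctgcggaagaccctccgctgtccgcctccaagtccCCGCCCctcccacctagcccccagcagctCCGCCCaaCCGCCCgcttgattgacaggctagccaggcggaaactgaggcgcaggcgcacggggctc
Zfp768: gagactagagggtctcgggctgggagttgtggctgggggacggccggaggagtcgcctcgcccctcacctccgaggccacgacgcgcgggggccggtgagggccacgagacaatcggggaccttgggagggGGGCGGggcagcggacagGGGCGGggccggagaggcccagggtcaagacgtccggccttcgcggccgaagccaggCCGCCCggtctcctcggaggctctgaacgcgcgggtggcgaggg
Zfp319: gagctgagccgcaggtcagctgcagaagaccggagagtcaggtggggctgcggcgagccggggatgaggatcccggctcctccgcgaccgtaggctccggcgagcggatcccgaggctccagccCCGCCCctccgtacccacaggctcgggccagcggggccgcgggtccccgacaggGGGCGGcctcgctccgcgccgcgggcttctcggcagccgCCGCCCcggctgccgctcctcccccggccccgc
Zfp212: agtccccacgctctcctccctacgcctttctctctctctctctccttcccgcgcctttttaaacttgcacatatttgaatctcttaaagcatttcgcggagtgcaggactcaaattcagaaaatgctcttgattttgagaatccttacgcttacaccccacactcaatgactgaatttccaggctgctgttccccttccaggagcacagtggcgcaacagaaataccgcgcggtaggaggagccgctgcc
Zfp618: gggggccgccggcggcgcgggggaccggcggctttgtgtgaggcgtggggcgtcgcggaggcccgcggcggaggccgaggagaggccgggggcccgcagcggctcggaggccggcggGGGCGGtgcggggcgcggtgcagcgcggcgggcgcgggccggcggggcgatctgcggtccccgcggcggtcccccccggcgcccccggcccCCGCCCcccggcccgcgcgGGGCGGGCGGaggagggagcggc
Zfp536: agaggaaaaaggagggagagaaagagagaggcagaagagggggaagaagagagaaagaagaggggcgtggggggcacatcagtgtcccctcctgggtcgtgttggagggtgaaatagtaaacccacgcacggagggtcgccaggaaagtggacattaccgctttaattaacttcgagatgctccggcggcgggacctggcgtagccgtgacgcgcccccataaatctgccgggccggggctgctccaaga
In the stretch of Zfp787, where the peaks lay 62 bp upstream of the TSS on E13.5 and 3 bp downstream on E16.5, there was 1 GC box, beginning 227 bp upstream. Zfp281 held 4 GC boxes, beginning 224, 96, 67 and 59 bp upstream, and its E16.5 peak was listed 56 bp upstream. Zfp768 and Zfp319 held 3 each. Zfp618 held 4 in a stretch of 88.8% G and C although both lists placed its peaks at least 91349 bp away, while Zfp212, with a promoter peak in both lists, held none, and neither did Zfp536. A GC box in these letters was therefore not limited to promoters with a peak. Nor did every promoter with a peak hold one in the printed 250 bases. The peaks of Zfp212, however, were listed 246 and 124 bp downstream of the TSS. That lies outside the printed stretch, so the sequence there was not examined. Also outside the printed bases lay the E13.5 peak of Zfp319, listed 114 bp downstream, and the E16.5 peak of Zfp787. Distances of peaks refer to the mm9 TSS, which may differ from the TSS of the printed sequence.

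At E13.5, 16 of the 76 genes (21.1%, interval 13.4 to 31.5) had a promoter peak, here a peak within 1 kb of the TSS, beside 17.3% of all listed gene names. At E16.5, 33 of 76 (43.4%, 32.9 to 54.6) had a promoter peak, beside 32.9% of all listed names. The number was thus higher in the E16.5 list, as it was over all genes. In both lists 10 of the 76 genes had a promoter peak (13.2%; 12.0% of all names), 6 had it on E13.5 only (5.31% of all names) and 23 on E16.5 only (20.9% of all names). Distal peaks, farther than 1 kb, were assigned to 38 of 76 genes (39.0% to 61.0% by the interval) at each stage, beside 61.8% of all listed names on E13.5 and 59.2% on E16.5. A distal peak at both stages was found for 32 genes, on E13.5 only for 6 and on E16.5 only for 6. Counted only up to 50 kb from the TSS, 20 genes had a distal peak on E13.5 and 20 on E16.5. When a peak was given only to its nearest listed TSS, 22 and 26 genes kept a distal peak.

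Both kinds of peak on 1 gene were about as uncommon for the Zfp genes as for all genes of each list. At E13.5, 14 of 52 genes had promoter peaks alone (26.9%, 16.8 to 40.3; all genes 17.1%), 36 had distal peaks alone (69.2%, 55.7 to 80.1; all genes 76.8%), and Zfp397 and Zfp703 had both kinds (3.85%; all genes 6.09%). At E16.5 the numbers were 27 of 65 (41.5%, 30.4 to 53.7; all genes 29.9%) and 32 (49.2%, 37.5 to 61.1; all genes 61.0%), and 6 genes (9.23%; all genes 9.08%) had both kinds: Zfp148, Zfp280d, Zfp326, Zfp397, Zfp407 and Zfp703. Over both lists, 37 of the 76 genes had distal peaks only and 32 had promoter peaks only. A distal peak in at least 1 list was found for 44 of the 76 genes, beside 4705 of the 6474 listed names. Most genes had a single peak, 36 of the 52 on E13.5 and 43 of the 65 on E16.5. The median over all listed genes was 1 peak at each stage. How many of all listed genes had a single peak, or distal peaks only over both lists, was not counted. Genes with 3 or more peaks made up 11 of 52 (21.2%) on E13.5 and 13 of 65 (20.0%) on E16.5, beside 22.5% and 17.2% of all genes of those lists.

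**Figure D1:**
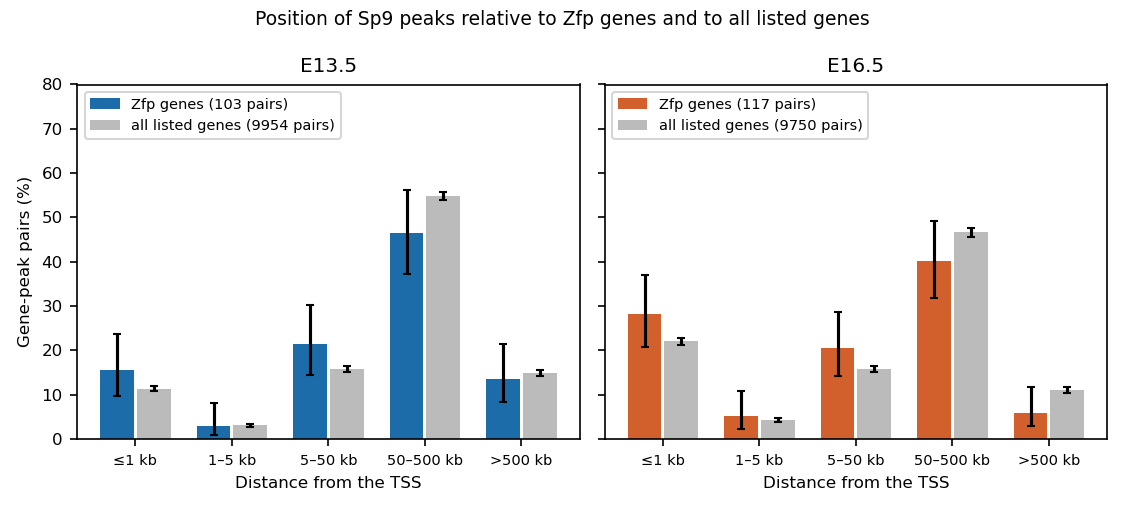
Share of gene-peak pairs (%) in each class of distance from the TSS, on E13.5 (left) and E16.5 (right), for the Zfp genes (coloured bars) and for all listed genes (grey bars), with 95% Wilson intervals. The promoter class held 15.5% of the pairs of Zfp genes on E13.5 and 28.2% on E16.5, and the class from 50 to 500 kb was the largest at both stages (46.6% and 40.2%).

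A peak can be assigned to more than 1 gene, so peaks were counted as gene-peak pairs. The Zfp genes had 103 pairs from 100 distinct peaks on E13.5 and 117 pairs from 115 distinct peaks on E16.5. Promoter pairs were 16 of 103 (15.5%, 9.79 to 23.8) and 33 of 117 (28.2%, 20.8 to 37.0), beside 11.4% and 22.1% of the pairs of all listed genes. From 1 to 5 kb from the TSS lay 3 (2.91%) and 6 pairs (5.13%), beside 3.12% and 4.35% of all pairs. The median distance of the distal pairs was 146.4 kb on E13.5 and 102.9 kb on E16.5, beside 163.3 and 141.7 kb over all listed genes.

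The 10 genes with a promoter peak at both stages were Zfp91, Zfp143, Zfp212, Zfp276, Zfp384, Zfp397, Zfp408, Zfp668, Zfp703 and Zfp787. Zfp703, a corepressor gene related to Zfp503, had its promoter peak 219 bp upstream of the TSS on E13.5 and 276 bp upstream on E16.5. Zfp787 had its peaks at the distances given above, and Zfp397 had them 35 bp upstream on E13.5 and 46 bp downstream on E16.5. Zfp276 had a peak 129 bp upstream on E13.5 and 9 bp downstream on E16.5.
The pair of positions was farthest apart at Zfp143, which encodes an activator that itself binds many promoters. Its peak lay 223 bp upstream on E13.5 and 209 bp downstream on E16.5, and with 432 bp between them these were not counted as the same site. The other 9 genes had both positions within 138 bp of each other. Zfp91, which encodes a ubiquitin ligase with zinc fingers, had its peak 638 and 675 bp downstream of the TSS, and Zfp384, a gene for a nuclear matrix-associated factor, 673 and 553 bp upstream. Zfp212 had it 246 and 124 bp downstream, Zfp408 417 and 286 bp upstream, and Zfp668 868 and 839 bp downstream. In 7 of the 10 genes the E16.5 position was the more downstream, beside 52.1% of all genes with a promoter peak in both lists.

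Promoter peaks in the E13.5 list only were those of Zfp41, Zfp51, Zfp319, Zfp760, Zfp868 and Zfp963. None of these 6 genes, each with a single E13.5 peak, had any peak on E16.5. The median over all listed genes was also 1 peak at each stage. How often all genes with a promoter peak on E13.5 only were absent on E16.5 was not counted. Zfp51 had its peak 47 bp upstream, Zfp319 114 bp downstream, Zfp963 134 bp downstream and Zfp760 163 bp upstream. Zfp41 had it 260 bp upstream and Zfp868 381 bp downstream. In the order of RefSeq genes, 4 of the 6 stand next to another Zfp gene (66.7%, 30.0 to 90.3), beside 27.6% of all 76 genes and 57.9% of the Zfp genes in neither list.

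The 23 genes with a promoter peak on E16.5 only included general regulators and little-studied genes. Zfp148 and Zfp281, which encode related factors that bind GC-rich DNA, had peaks 90 bp downstream and 56 bp upstream of the TSS. Zfp335, a gene required for the production of cortical neurons, had a peak 304 bp downstream, and Zfp407 had one 118 bp downstream. Nearest to the TSS were Zfp664 at 7 bp and Zfp524 at 52 bp, both downstream, followed by Zfp281, Zfp560 at 57 bp downstream and Zfp280d at 67 bp upstream.
Of these 23 genes, 5 had a distal peak in the E13.5 list: Zfp148, Zfp280d, Zfp281, Zfp326 and Zfp407. Zfp326, which encodes a protein of messenger RNA processing, had a recurring peak 16193 and 16203 bp upstream and, in the E16.5 list only, one 156 bp downstream of the TSS. Zfp280d had a recurring peak 100368 and 100355 bp downstream, nearer to Mns1 at both stages. The single E13.5 peak of Zfp281 lay 284842 bp downstream and nearer to the nuclear receptor gene Nr5a2, at 50684 bp from its TSS. The other 18 genes were absent from the E13.5 list. The share absent over all genes with a promoter peak on E16.5 only was not counted. Peaks of Zfp655, Zfp553, Zfp652, Zfp511, Zfp382, Zfp341, Zfp628, Zfp446 and Zfp428 lay 68 to 202 bp downstream. Those of Zfp318, Zfp768, Zfp661 and Zfp740 lay 98 to 992 bp upstream, and that of Zfp282 lay 677 bp downstream.

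**Figure D2:**
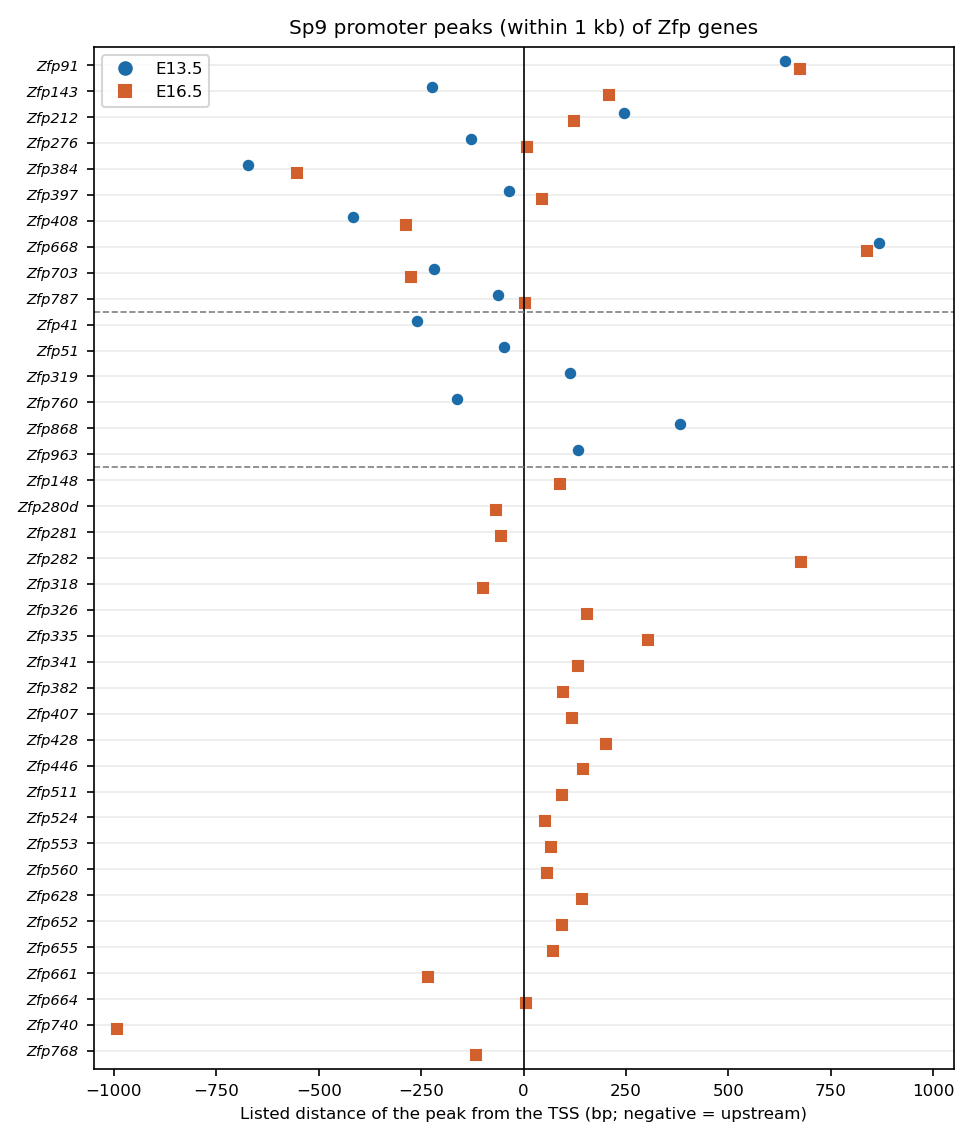
Listed distance in bp from the TSS (negative, upstream) of each promoter peak of the 39 Zfp genes that had one, E13.5 as circles and E16.5 as squares; dashed lines separate genes with a promoter peak at both stages (top), on E13.5 only and on E16.5 only. Of the 33 E16.5 peaks, 9 lie upstream of the TSS.

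At E16.5 the promoter peaks of the Zfp genes lay mostly downstream of the TSS. Of 33 peaks, 9 (27.3%, 15.1 to 44.2) lay upstream, beside 63.9% of the promoter pairs of all listed genes. At E13.5, 10 of 16 (62.5%, 38.6 to 81.5) lay upstream, beside 68.0%. Among the 23 genes with a promoter peak on E16.5 only, 6 peaks (26.1%) were upstream, beside 61.1% for all genes of that kind, and of the 6 genes on E13.5 only, 3 were, beside 67.5%. A peak between divergent genes is upstream of both, so the count was repeated with peaks assigned to a single gene: 7 of 24 (29.2%, 14.9 to 49.2) were upstream on E16.5, beside 63.0%, and 7 of 10 on E13.5, beside 67.9%. The median distance from the TSS, without its sign, was 118 bp on E16.5 beside 113 bp for all promoter pairs, and 221 bp beside 130 bp on E13.5. Within 250 bp of the TSS lay 25 of 33 peaks (75.8%, 59.0 to 87.2; all pairs 77.6%) and 10 of 16 (62.5%, 38.6 to 81.5; all pairs 75.0%). Which point of a peak the listed distance refers to is not given in the sources used. The side of the TSS was not among the planned results.

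Some promoter peaks lay close to the TSS of another gene as well. At E13.5, 4 of 16 also lay within 1 kb of the TSS of another listed gene, and on E16.5 7 of 33. That share was not counted over all listed genes. Peaks assigned to a single gene were 10 of 16 on E13.5 and 24 of 33 on E16.5. Over all listed genes they were 809 of 1133 and 1537 of 2153 promoter pairs. Zfp276 shared its promoter peaks with Vps9d1, Zfp143 with AA474408 and Zfp408 with Arhgap1 at both stages. Zfp319 shared its E13.5 peak with Usb1, a gene for an RNA exonuclease. At E16.5 Zfp511 shared its peak with Tubgcp2, a gene of the gamma-tubulin complex, Zfp661 with the mitochondrial ribosomal protein gene Mrps5, Zfp664 with Ccdc92 and Zfp524 with the zinc finger gene Fiz1. The peaks of Zfp408 lay nearer to Arhgap1 at both stages (90 and 41 bp), that of Zfp143 nearer to AA474408 on E13.5 (154 bp), and that of Zfp661 nearer to Mrps5 (105 bp). By nearest TSS alone, 14 of the genes had a promoter peak on E13.5 and 31 on E16.5.

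Peaks were also shared within the group. Zfp668 and Zfp646, neighbouring genes, shared 1 peak at each stage, within 1 kb of Zfp668 and 1741 and 1712 bp upstream of Zfp646. Zfp646 and Zfp467, with a peak 1509 bp downstream on E16.5, were the genes nearest outside the 1 kb limit, and Zfp740, at 992 bp, was nearest inside it. Zfp524 and Zfp865 shared the E16.5 peak 52 bp from Zfp524, which lay 4823 bp upstream of Zfp865. Zfp516 and Zfp236 shared a pair of E13.5 peaks, 42036 and 38204 bp upstream of Zfp516 and 176109 and 179941 bp from Zfp236.

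Zfp703 had the most peaks of the Zfp genes, with 12 peaks on E13.5 and 9 on E16.5, and all 9 recurred, meaning that the other list held a peak of the same gene at a TSS distance within 200 bp. Near the gene these were the promoter peak, one 15851 and 15890 bp upstream and one 7318 and 7349 bp downstream. The others ran upstream from 220628 to 738117 bp on E13.5, and those 339617, 592406 and 763091 bp upstream were in the E13.5 list only. All 10 of its E13.5 peaks at least 15 kb upstream were also assigned to Thap1, and 5 of them lay nearer to Zfp703.

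Zfp462, Zfp423 and Zfp536, all known from the nervous system, had long-range peaks and no promoter peak. Zfp462, a chromatin-associated gene linked to neurodevelopmental disorders, had 8 peaks on E13.5 and 5 on E16.5. All 5 recurred: 51900 and 51903 bp upstream, and from 177488 to 369055 bp downstream, where the most distant peak was listed at 369055 bp at both stages. Its E13.5 peaks 818582 and 593414 bp upstream and 41513 bp downstream had no counterpart. Of the E13.5 peaks of Zfp462, 5 were also assigned to Rad23b, with 2 of them nearer to Zfp462. Another 2 were also assigned to Tmem38b and lay nearer to it. On E16.5, 4 were shared with Rad23b, and 1 of them lay nearer to Zfp462. Zfp423, a partner of BMP signalling and of EBF factors that is needed in cerebellar development, had 5 and 3 peaks, all 79181 to 276280 bp downstream of the TSS, of which those 218183 and 276280 bp downstream on E13.5 recurred. All were also assigned to 4933402J07Rik, and only 1 at each stage lay nearer to Zfp423. Both recurring peaks lay nearer to 4933402J07Rik. Zfp536, known as a negative regulator of neuronal differentiation, had 6 and 3 peaks, but a single peak, 365825 and 365724 bp downstream, recurred. Its E13.5 peak nearest to the gene lay 46423 bp downstream and had no counterpart on E16.5.
Several of these distant peaks were also assigned to Tshz3, a teashirt zinc finger gene between Zfp536 and Zfp507 in the assignments. Of the 6 E13.5 peaks of Zfp536, 4 were shared with Tshz3 and 3 of those lay nearer to Zfp536. Zfp507 had 6 peaks on E13.5 and 4 on E16.5, from 146376 to 701418 bp upstream, and 4 recurred. All were shared with Tshz3, and 2 of the 6 and 1 of the 4 lay nearer to Zfp507.

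**Figure D3:**
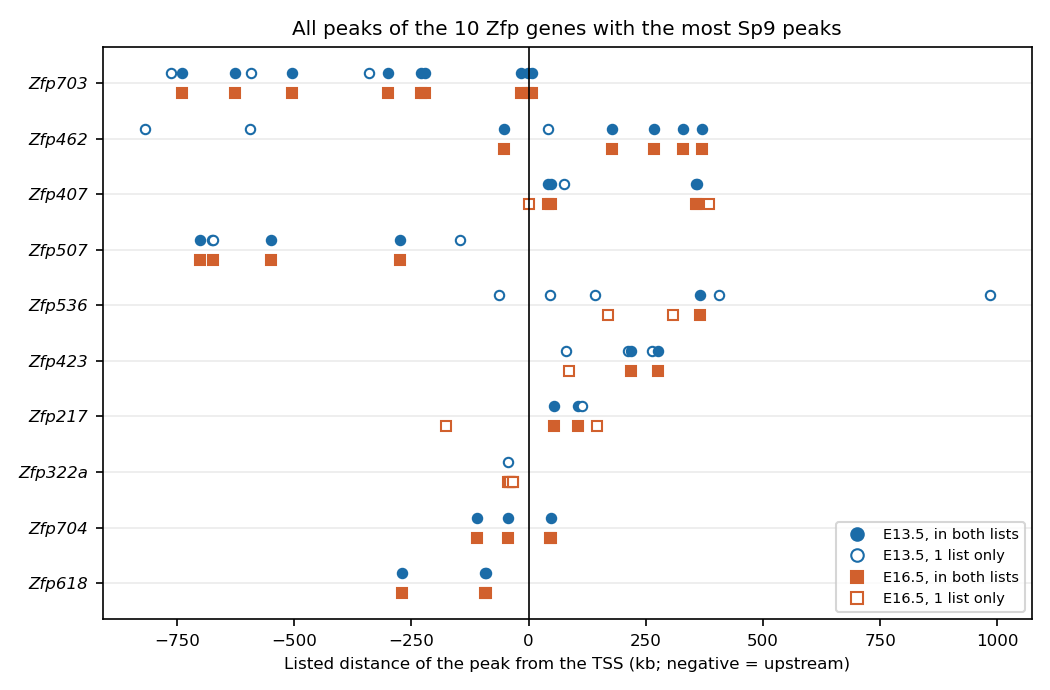
Listed distance in kb from the TSS (negative, upstream) of every peak of the 10 Zfp genes with the most peaks over both lists (Zfp644 ties with the last, Zfp618, and is not drawn), E13.5 as circles and E16.5 as squares; filled symbols have a peak of the same gene within 200 bp in the other list and open symbols do not. All 9 E16.5 peaks of Zfp703 recur, and none of the 6 of Zfp322a.

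Zfp407, besides its E16.5 promoter peak, had 5 peaks at each stage, of which 4 recurred, including a pair inside 50 kb at 41799 and 47077 bp downstream on E13.5. All 5 were shared with Zadh2 at each stage, and 3 on E13.5 and 2 on E16.5 lay nearer to Zfp407. Zfp704 had 3 and 4 peaks, and its E13.5 peaks 110399 and 44623 bp upstream and 47952 bp downstream all recurred. At Zfp618, whose product binds chromatin, the 3 E13.5 peaks recurred, 270503, 92712 and 91377 bp upstream, the most distant of them nearer to Rgs3. At Zfp644, linked to the G9a histone methyltransferase, the 3 also recurred, 12369 bp upstream and 119221 and 135968 bp downstream, both of the latter nearer to the homeobox gene Barhl2 (119169 and 102422 bp). Zfp217, a corepressor gene, had 3 and 4 peaks, of which those 54500 and 105368 bp downstream on E13.5 recurred. The more distant of this pair lay nearer to AY702102.

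Zfp322a, a gene associated with pluripotent cells, differed most in number, with 1 peak on E13.5 and 6 on E16.5. The E13.5 peak lay 43211 bp upstream, and the E16.5 peaks lay between 32609 and 43516 bp upstream. None recurred by the 200 bp measure, and all of them lay nearer to Abt1, at 11142 to 22049 bp from its TSS. Zfp438 had 1 peak on E13.5, 171490 bp downstream, and 3 on E16.5, from 126394 to 137497 bp downstream. At Zfp169 the peaks also differed between the lists (163132 bp downstream on E13.5, 129047 and 151125 bp on E16.5), and all lay nearer to Id4, an inhibitor of helix-loop-helix factors.

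The genes for CCCH RNA-binding proteins had distal peaks only. Zfp36l1 had a peak 2441 bp upstream on E13.5 and 2583 bp upstream on E16.5, and a peak 55423 bp upstream on E16.5 only. A distant one at 577162 and 577236 bp lay nearer to Rad51b. Zfp36l2 had a peak 178322 and 178295 bp upstream, nearer to Thada, and one 91279 bp downstream on E16.5 only. Zfp36 and Zfp36l3 were in neither list.

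A further group of genes had distal peaks that recurred between the lists. Zfp106, for an RNA-binding protein of neurons and muscle, had peaks 23925 and 25889 bp downstream on E13.5 that both recurred. Zfp512 had a peak 9834 and 9825 bp downstream, Zfp395 one 14854 and 14804 bp upstream, and Zfp667 one 2715 and 2700 bp upstream. Zfp532 had one 20131 and 20190 bp upstream and, on E16.5 only, another 98107 bp downstream that lay nearer to Oacyl. Single recurring peaks of Zfp474, Zfp957, Zfp352, Zfp330 and Zfp622, a pair at Zfp64 and 1 at Zfp397 lay from 42055 to 457452 bp away on E13.5. Among these only the peak of Zfp352 had the Zfp gene as nearest listed TSS. That of Zfp474 was nearer to Lox, that of Zfp957 to Rgcc, that of Zfp330 to Il15 and that of Zfp397 to Mapre2, and those of Zfp64 and Zfp622 were also nearer to other genes.
Of the 44 genes with a distal peak, 12 (27.3%, 16.3 to 41.8) had one at 1 stage only, beside 33.6% of all listed genes with a distal peak. Zfp202, Zfp236, Zfp365, Zfp541 and Zfp804a were listed on E13.5 only. Zfp365, active in neurons and oligodendrocytes, had a peak 37373 bp downstream, and Zfp804a, a gene near variants associated with psychiatric disease in humans, had one 445577 bp downstream. Zfp467, Zfp518b, Zfp647, Zfp770, Zfp846 and Zfp865 were listed on E16.5 only, from 1509 bp to 211017 bp from the TSS. None of the 3 E13.5 peaks of Zfp516 recurred, and the E16.5 list had 1 peak, 3674 bp downstream, and the peaks of Zfp148 at 84477 and 84244 bp fell just beyond the 200 bp limit.

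Over all pairs of the Zfp genes, 64 of 103 (62.1%, 52.5 to 70.9) on E13.5 and 64 of 117 (54.7%, 45.7 to 63.4) on E16.5 recurred, beside 58.1% and 59.3% of the pairs of all listed genes. Distal pairs recurred in 55 of 87 cases (63.2%) on E13.5 and 55 of 84 (65.5%) on E16.5, beside 57.4% and 66.6%. Promoter pairs recurred in 9 of 16 cases (56.2%, 33.2 to 76.9) and 9 of 33 (27.3%, 15.1 to 44.2), beside 63.5% and 33.5%. All 6 background shares lay inside the intervals of the Zfp genes. Intervals over pairs treat the pairs of 1 gene as separate and may be too narrow. Zfp703 alone supplied 12 of the 103 pairs on E13.5. The recurring pairs differed by a median of 38 bp between the lists. Of the distal pairs of the Zfp genes, 41 of 87 (47.1%) on E13.5 and 42 of 84 on E16.5 had the Zfp gene as nearest listed TSS, beside 55.0% and 54.4% of the distal pairs of all listed genes.

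Set against every protein-coding gene of the RefSeq table that now has such a symbol, promoter peaks at Zfp genes were about as common as at other genes. Of 392 genes, 16 (4.08%, 2.53 to 6.53) had a promoter peak on E13.5 and 34 (8.67%, 6.27 to 11.9) on E16.5, beside 4.93% and 9.42% of all 21900 protein-coding genes. Any peak was found for 58 (14.8%, 11.6 to 18.7) and 72 (18.4%, 14.8 to 22.5), beside 20.7% and 23.6%. Distal peaks were found for 44 genes at each stage (11.2%, 8.47 to 14.7), beside 17.0% and 16.3%. The shares with any peak and with a distal peak were thus below those of all protein-coding genes, and their intervals did not reach them. These counts include 7 genes that the lists carry under older names.

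The order of protein-coding genes in RefSeq shows how many of these genes have another Zfp gene as neighbour. Of the 76 genes, 21 (27.6%, 18.8 to 38.6) stand next to another Zfp gene, beside 179 of the 309 Zfp genes in neither list (57.9%, 52.4 to 63.3). The number was 6 of 37 among genes with distal peaks only (16.2%, 7.65 to 31.1), 7 of 23 among those with a promoter peak on E16.5 only (30.4%, 15.6 to 50.9), 4 of 10 at both stages (40%, 16.8 to 68.7) and 4 of 6 on E13.5 only (66.7%, 30.0 to 90.3). The difference between listed and unlisted genes was not tested, and the genes with a promoter peak on E13.5 only do not share its direction. Beyond 5000 bp upstream and 1000 bp downstream a peak was assigned only as far as a neighbouring gene allowed, so genes in dense clusters had less sequence in which a distal peak could be assigned to them. The part of this in the counts was not tested.

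RefSeq windows of 300 bases (250 before to 50 after the TSS) matched 56 of the 76 genes by symbol, with 69 windows. Of these genes, 11 had more than 1 window, and some windows overlap. The intervals below treat windows as separate and are therefore too narrow. No window was matched for Zfp36l2, Zfp41, Zfp51, Zfp236, Zfp276, Zfp395, Zfp397, Zfp407, Zfp438, Zfp446, Zfp462, Zfp474, Zfp516, Zfp524, Zfp532, Zfp646, Zfp647, Zfp703, Zfp704 and Zfp865. A GC box (GGGCGG, either strand) occurred in 45 of the 69 windows (65.2%, 53.4 to 75.4), against 125 of 320 windows (39.1%, 33.9 to 44.5) of Zfp genes in neither list and 46.2% of the windows of all protein-coding genes. Over all protein-coding genes with a promoter peak the share was 75.7% on E13.5 and 75.6% on E16.5. Among the Zfp genes it was 27 of 40 windows (67.5%, 52.0 to 79.9) with a promoter peak in either list and 18 of 29 (62.1%, 44.0 to 77.3) with distal peaks only. The letters CCAAT, on either strand, occurred in 18 of 69 windows (26.1%, 17.2 to 37.5), against 167 of 320 (52.2%, 46.7 to 57.6) for Zfp genes in neither list and 38.2% of all windows. The median G and C content was 61.3%, against 54.3% for Zfp genes in neither list, and the median number of CG dinucleotides was 21 against 12. A match of letters is a description and not a binding site.

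Other zinc finger name families are given for comparison. Of all protein-coding genes, 4.93% had a promoter peak on E13.5 and 9.42% on E16.5, and 20.7% and 23.6% had any peak. Of 41 Zbtb genes, which pair C2H2 fingers with a BTB domain, 5 had a promoter peak on E13.5 (12.2%, 5.32 to 25.5) and 8 on E16.5 (19.5%, 10.2 to 34.0). None of 27 Zscan and Zkscan genes had a promoter peak at either stage. This allows a share of up to 11.1% at each by 3 counts of the total and up to 12.5% by the Wilson interval. Both limits lie above the promoter shares of all protein-coding genes. Zscan20 alone had a peak, on E13.5. Of 19 Zc3h genes, for CCCH proteins, 2 and 5 had a promoter peak. All 5 Zfhx and Zeb genes, for homeodomain zinc finger factors, had a peak on E13.5 and 4 of 5 on E16.5, with 1 promoter peak, at Zfhx2 on E13.5. Promoter peaks were found for 1 and 3 of 13 Zcchc genes, 1 and 4 of 24 Zdhhc genes, 2 and 3 of 14 Zmym, Zmiz and Zmynd genes, and 3 and 4 of 22 Phf genes at the earlier and the later stage. Differences between families were not tested, and most intervals overlap.

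**Figure D4:**
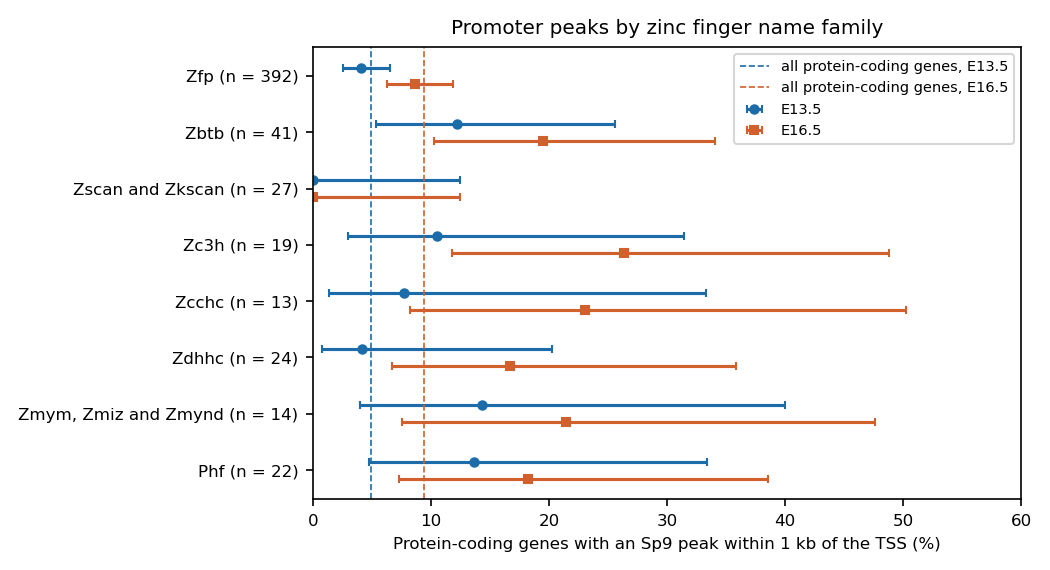
Share (%) of protein-coding genes with an Sp9 peak within 1 kb of the TSS for name families of zinc finger genes, on E13.5 (circles) and E16.5 (squares), with 95% Wilson intervals; dashed lines give the share over all protein-coding genes. Each Zfp interval includes the line of its own stage, 4.93% and 9.42%.

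The partners through which KRAB zinc finger proteins act were read from a list of 22 genes. The list was chosen with earlier results of these data known, and enrichment was not tested. At E13.5, 2 had a promoter peak (9.09%, 2.53 to 27.8, beside 4.93% of all protein-coding genes): Mphosph8, a subunit of the HUSH silencing complex, 128 bp upstream, and Dnmt1, the maintenance DNA methyltransferase, 46 bp downstream. At E16.5, 7 had one (31.8%, 16.4 to 52.7, beside 9.42% of all protein-coding genes). These were Mphosph8 again, at 226 bp upstream, Atf7ip, a partner of Setdb1, at 473 bp, the heterochromatin protein genes Cbx1 and Cbx3 at 168 and 255 bp, the histone deacetylase gene Hdac2 at 395 bp, and Morc2a and Morc3 at 540 and 109 bp. Any peak was found for 4 of 22 (18.2%, 7.31 to 38.5) on E13.5 and 10 of 22 (45.5%, 26.9 to 65.3) on E16.5, beside 20.7% and 23.6% of all protein-coding genes. Trim28 and Setdb1 themselves were in neither list.

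The other lists are short. They too were chosen with earlier results of these data known, so their shares describe the lists, and enrichment was not tested. Of 20 genes tied to neural development, 12 (60%, 38.7 to 78.1) had a peak on E13.5 and 10 (50%, 29.9 to 70.1) on E16.5, beside 20.7% and 23.6% of all protein-coding genes. A promoter peak was found for 3 (15%, 5.24 to 36.04) and 4 (20%, 8.07 to 41.6), beside 4.93% and 9.42% (Zfp41, Zfp212 and Zfp703 on E13.5; Zfp212, Zfp335, Zfp407 and Zfp703 on E16.5). Of 10 genes of pluripotency and imprinting, Zfp281 and Zfp322a had peaks at both stages, a share near that of all protein-coding genes (20.7% and 23.6%). Of 4 genes for factors that bind GC-rich DNA, Zfp148, Zfp281 and Zbtb14 had peaks at both stages (75%, 30.1 to 95.4, beside the same 20.7% and 23.6%). None of 4 X-linked and Y-linked zinc finger genes had a peak at either stage. This allows a share of up to 49.0% by the Wilson interval, which includes the 20.7% and 23.6% of all protein-coding genes.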

How the data were processed

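Sp9 ChIP-seq was made from basal ganglia of CD1 embryos, with 1 ChIP and 1 input library at E13.5 and at E16.5. Per the submitters' processing notes the tools were CASAVA 1.8.2, bcl2fastq 1.8.4, BWA 0.6.2 and MACS2 2.1.0 with mm9; what each did and how peaks were thresholded is not given in the sources used. The deposited files hold text and no other unit, such as counts or scores: per the file headers, the authors listed for each gene the peaks in its regulatory domain (5000 bp upstream, 1000 bp downstream, extended up to 1000000 bp, curated domains included), each with its distance from the TSS.

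Lettered entries of 1 numbered peak were counted once; no peak of a Zfp gene was split. Promoter peaks lay within 1 kb, and recurring peaks within 200 bp in the same gene. Names were matched to RefSeq (GRCm38.p6), all 76 by symbol. With 1 library per stage no test was made; shares have 95% Wilson intervals. The genes and lists were chosen with earlier results of these data known. The text names genes with a promoter peak in both lists, the 10 with the most peaks (ties by name), members of the lists, the 5 nearest to the TSS among genes with a promoter peak at 1 stage only, and those beside the 1 kb limit; others were named after their values were seen. The matching was tested on simulated data. Alternatives were other promoter limits and tolerances, the nearest TSS and separate entries. Scripts ran in Python 3.11.15 with numpy 2.4.6, scipy 1.17.1 and, for figures, matplotlib 3.10.9.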

Additional observations from a re-analysis of the deposited data

How the results depend on the processing

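Of 37 alternative counts, 32 stayed within 1.5 times the reported count, among them every count of genes with a promoter peak under limits of 500 and 2500 bp and by nearest TSS. The 32 include counts with separate entries, which could not differ because no peak of a Zfp gene was split. Wider tolerances could only add recurring pairs. Genes with a distal peak on E13.5 fell from 38 to 22 when a peak counted only for its nearest listed TSS, and to 20 at each stage when distal peaks were limited to 50 kb, both of which remove peaks by construction. Recurring pairs fell from 64 to 35 in each list by nearest TSS, where 55 and 73 pairs were left. Matching within 100 bp gave 53 recurring pairs and within 500 bp or 1000 bp 67. The count of promoter peaks upstream of the TSS was not among the planned results. Its versions with a limit of 500 bp (9 of 13 on E13.5 and 7 of 28 on E16.5) or with peaks of a single gene were chosen after seeing the data. No paired analysis was possible because each stage has 1 ChIP library and no test was made. Without read totals, depth could not be weighed.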

Other observations

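The lists also hold 7 names that do not start with Zfp but that the RefSeq table now gives a Zfp symbol: C030039L03Rik, Gm13051, Gm13145, Gm13152, Gm13242, Gm13247 and Gm13251. C030039L03Rik (now Zfp607b) had a peak 103 bp upstream of its TSS on E16.5 and none on E13.5. The other 6 had distal peaks in both lists and no promoter peak, many of them shared between these genes. Gm13152 (now Zfp982) had 6 peaks on E13.5 and 9 on E16.5, lying on both sides of the gene between 27063 and 72473 bp from the TSS, and those upstream were shared with Gm13145 (now Zfp978). The nearest peak in this set lay 5594 bp downstream of Gm13251 (now Zfp992) on E13.5, with peaks at 5694 and 6419 bp on E16.5.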
